A study of Rattus norvegicus with 23 samples.

Results

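Inflammasome and NOD receptor genes were examined in the lungs of elderly rats that had inhaled a titanium dioxide (TiO2) nano-aerosol. The members were 10 genes chosen by name: Nlrp3, Nlrp1a, Nlrc4, Aim2, Pycard, Casp1, Casp4, Gsdmd, Nod1 and Nod2. They were found through the gene symbol given to each spot of the array, which matched 18 spots of 17 probes, and they stood among 23060 genes tested. The rats were male F344 rats, 19 months old when inhalation began, exposed through the nose for 6 hours a day on 5 days a week over 4 weeks. Exposed rats breathed TiO2 at 10 mg/m3 and control rats breathed filtered air. Total RNA came from the accessory lobe of the lung, with 1 rat per array, and was collected on the day exposure ended (D0) or 28 days later (D28). The 23 arrays came from 6 control and 5 exposed rats of D0 and from 6 control and 6 exposed rats of D28. An array of 1 more exposed rat of D0 is not used here, and for the exposed rats of D28 the day was taken from titles and descriptions, since the source label reads day 0. The study asked how inhaled TiO2 changes gene expression in old lungs at the end of exposure and after a recovery period.

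Inflammasomes are protein complexes that assemble in the cytosol of macrophages, neutrophils and epithelial cells when a sensor meets a microbial product or a sign of cell damage. The sensor recruits the adaptor ASC, encoded by Pycard, which gathers caspase-1, and the active protease cuts the precursors of the cytokines IL-1β and IL-18 and the pore-forming protein gasdermin D. NOD1 and NOD2 are related cytosolic receptors for fragments of bacterial cell wall, which signal through the kinase RIPK2 to NF-κB and do not form an inflammasome. Much of the control of these proteins is by assembly and cleavage, which an mRNA measurement does not see.

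The probes are shown for the members on which the results below turn. Casp1 and Casp4, both inflammatory caspases, are each read by a single probe, and these probes lie 42.1 kb apart on the same strand of rat chromosome 8. The Casp1 probe is at chr8:2032917-2032976 and the Casp4 probe at chr8:2075044-2075103, on the plus strand of the rn4 build given in the array files. Nlrc4 has a pair of probes that differed from each other on D28, at chr6:20937498-20937557 and chr6:20943599-20943658, also on the plus strand. Which exon each probe covers was not given in the sources used here. The sequences follow, 5′ to 3′ and all in lower case, since no stretch is singled out.
Casp1: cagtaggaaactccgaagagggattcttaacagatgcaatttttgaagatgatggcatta
Casp4: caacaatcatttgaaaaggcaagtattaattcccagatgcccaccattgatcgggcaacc
Nlrc4 first probe: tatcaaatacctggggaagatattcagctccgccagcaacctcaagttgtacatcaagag
Nlrc4 second probe: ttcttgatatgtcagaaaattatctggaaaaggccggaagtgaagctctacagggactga
When laid over each other without gaps, the Casp1 and Casp4 probes matched at no more than 20 of 60 bases and shared no run longer than 7. Over all 128 pairs of probes of different members, the highest match was 28 bases and the longest shared run was 8.

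The signal of a probe is the brightness of its spot, corrected for background by the scanner software. Here it is given as a log2 value after quantile normalization, averaged over the probes of a gene. On each array the scanner software marked 69.5 to 77.9% of spots as well above background, and precision is limited by how many arrays there are. All 10 members were well above background on all 23 arrays with at least 1 probe. The 12 lung markers fixed for the check of the tissue, among them the surfactant genes Sftpc and Sftpb, were also well above background on all arrays. The arrays lay on 5 slides, of which 3 held all 4 groups, 1 held all but the controls of D28, and 1 held a single control array of D28. This control, rat 4, was also the single array read with the later version of the scanner software. Among the members it set an end of the D28 control range for Nlrp3, Nlrp1a, Nlrc4, Pycard and Gsdmd, but not for the others. Lung tissue holds many cell types, so fewer cells of a type and less RNA per cell cannot be told apart.

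None of the 10 members was differentially expressed on either day. A DEG here has a Benjamini-Hochberg adjusted p below 0.05 in limma and a fold change (FC) of at least 1.5 in either direction. On D0, 0 of 10 members were past both limits, where 1.8% of all genes were, and on D28 0 of 10, where 0.755% were. The adjusted p alone was passed by 0 of 10 on either day, where 2.88% of all genes passed on D0 and 1.31% on D28. At an unadjusted p below 0.05, limma passed 1 member on D0 and 1 on D28, in both cases Casp4, where 11.9% and 11% of all genes passed. The log2 FC of the members ran from -0.16 to 0.32 on D0, with a median of 0.11, and from -0.09 to 0.23 on D28, with a median of 0.0054. The median over all genes tested was -0.00063 on D0 and -0.0052 on D28. Exposed and control rats overlapped for each of the 10 members on both days, whereas 4.31% of all genes did not overlap on D0 and 1.21% on D28.

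The width of the intervals sets how large a difference could have been missed. On D0 the 95% interval, not adjusted for the number of genes, lay inside a FC of 1.5 in both directions for 9 of the 10 members, where this held for 50.4% of all genes. The exception was Nlrc4, for which an increase of up to 1.71-fold lay within the interval. On D28 all 10 intervals lay inside this range, against 52.6% of all genes, and for the mean of both days all 10 did, against 67.3%. Gsdmd had the narrowest intervals, with a standard error of 0.08 on D0 and 0.07 on D28.

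**Figure D1:**
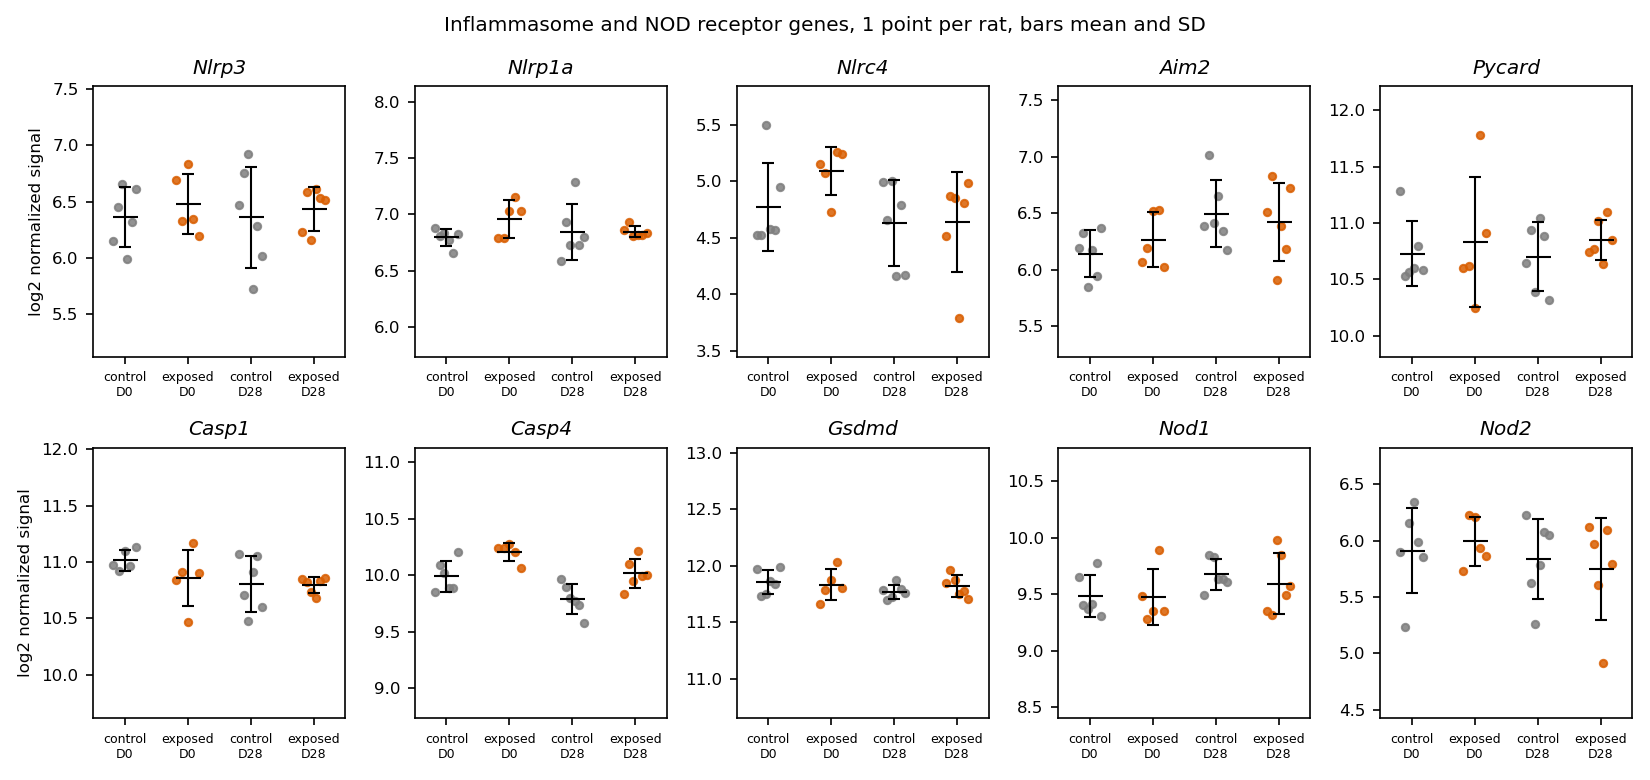
Log2 normalized signal (vertical axis, each panel on its own scale) of the 10 members in control (grey) and exposed (orange) rats on D0 and D28; each point is 1 rat and the black bars give the mean and SD of 5 or 6 rats. Exposed and control points overlap in each panel on both days, and 4 exposed Casp4 points per day sit above the highest control of that day.

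**Figure D2:**
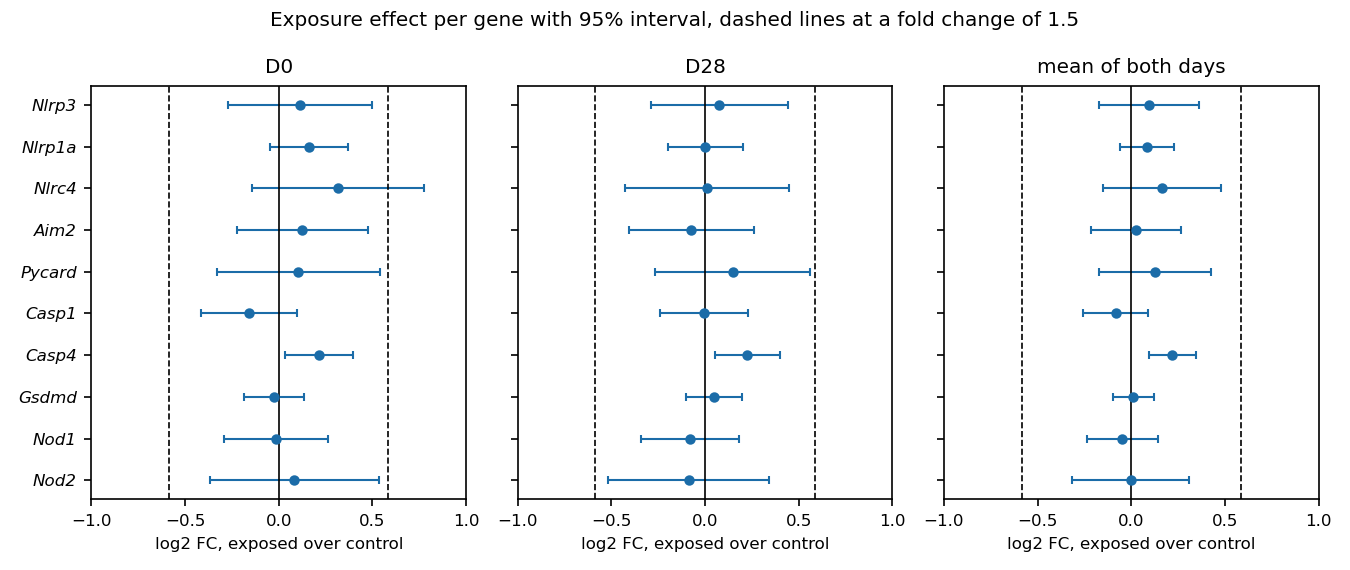
Log2 FC of exposed over control rats (horizontal axis) with its 95% interval for each member on D0, on D28 and for the mean of the 2 days; the dashed lines mark a FC of 1.5. The interval of Casp4 lies above 0 in all 3 panels, and that of Nlrc4 on D0 is the one that crosses a dashed line.

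Casp4, the caspase that binds bacterial lipopolysaccharide in the cytosol and can cut gasdermin D without caspase-1, was slightly higher in exposed rats on both days. On D0 the 5 exposed rats had log2 signals of 10.24, 10.24, 10.27, 10.21 and 10.06, and the 6 control rats ran from 9.86 over a median of 9.96 to 10.20. Of the 5 exposed rats, 4 were above the highest control and the other was above the control median. The log2 FC was 0.21 (standard error 0.09), a FC of 1.16 with an interval from 1.02 to 1.31, which missed the adjusted threshold in limma (adjusted p = 0.272).

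On D28 the Casp4 signals of the exposed rats ran from 9.84 over a median of 10.00 to 10.22, and those of the controls from 9.58 over 9.78 to 9.97. Again 4 exposed rats were above the highest control, and all 6 were above the control median. The log2 FC was 0.23 (standard error 0.08), a FC of 1.17 with an interval from 1.04 to 1.32 (limma adjusted p = 0.244). An exact permutation test over the rats of a day, two-sided and not adjusted for the 10 members or for having chosen the gene, gave p = 0.0173 on D0 and 0.0152 on D28.

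For the mean of the 2 days, Casp4 was the single member past the adjusted threshold. Its mean log2 FC was 0.22 (standard error 0.06, limma adjusted p = 0.0282), a FC of 1.16 with an interval from 1.07 to 1.27, so it stayed below the limit of 1.5. That threshold alone was passed by 6.56% of all genes, and 1.87% were past both limits, so a count of 1 in 10 members is near the background. Casp4 was also among the members with the least spread between rats: its SD within groups was 0.126, lower than that of all but 6.44% of the genes tested. The adjusted p of the mean effect ran from 0.00715 to 0.055 over 33 alternative settings and was below 0.05 in 27 of them. The 6 that lost it were the fit with the replicate number as a block (0.055) and the fits without control rat 1, 4 or 5 of D0 (0.0535, 0.0526 and 0.0525) or without exposed rat 2 or 3 of D0 (0.052 and 0.0515).

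Within slides Casp4 was higher in exposed than in control rats in each of the 7 comparisons that could be made. These were 4 slides on D0, with differences from 0.07 to 0.34 on the log2 scale, and 3 slides on D28, with 0.12 to 0.52. Each of them rested on 1 or 2 arrays per group, and no test was made within a slide. They split the same arrays that gave the effects above, so they are not independent of those effects. How many of all genes had the same sign on all slides was not counted, here or for the genes below. For Casp1, exposed rats were higher on 1 of 4 slides on D0 and on 2 of 3 on D28, with differences from -0.67 to 0.22.

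**Figure D3:**
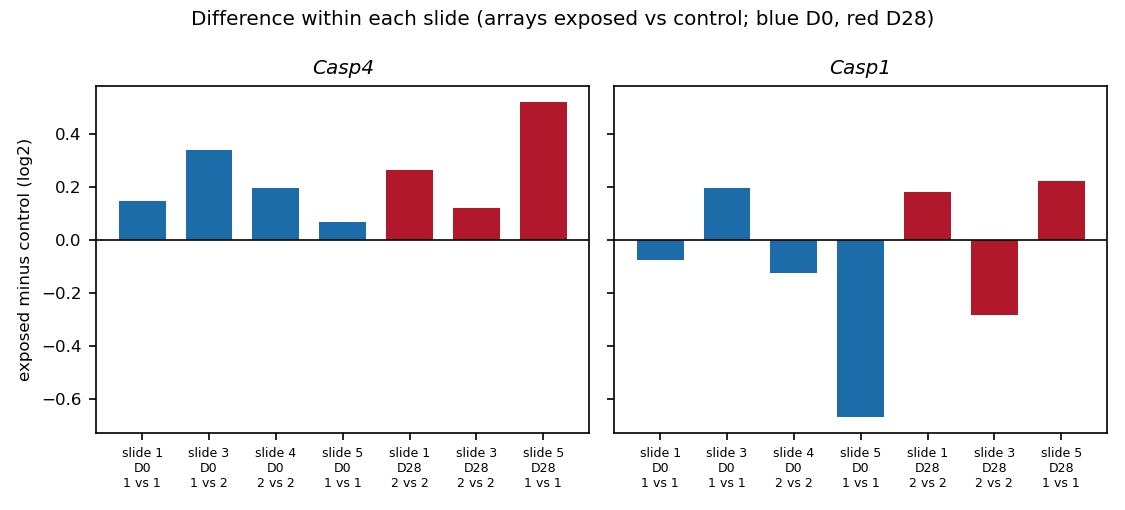
Exposed minus control difference in log2 signal (bars from 0) of Casp4 and Casp1 within each slide that held both groups of a day; the labels give the slide, the day and the number of exposed and control arrays. All 7 Casp4 bars are above 0, from 0.07 to 0.52, while 3 of the 7 Casp1 bars are.

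Casp1, the protease of the canonical inflammasome, did not pass any threshold. Its single probe was marked as an outlier by the scanner software on 1 array, control rat 5 of D0, so the fit used 22 arrays. On D0 the exposed rats had 10.84, 10.91, 10.46, 11.16 and 10.90, and the 5 remaining controls ran from 10.92 over a median of 10.97 to 11.13. Exposed rat 3 was lowest and exposed rat 4 highest of all these, which spread the exposed group on both sides of the controls. Exposed over control, the log2 FC was -0.16 (standard error 0.12, limma adjusted p = 0.771). With the marked spot kept it was -0.63 (adjusted p = 0.562), so a single spot moved the estimate by more than any other fit did. On D28 the exposed rats ran from 10.68 over 10.83 to 10.86 and the controls from 10.48 over 10.81 to 11.07, which gave -0.0064 for the log2 FC (standard error 0.11, adjusted p = 0.995).

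The neighbouring caspases could be compared within each rat, since a difference of their log2 signals cancels what both share on an array. This pair was chosen after its values were seen. The Casp4 minus Casp1 difference was 0.35 higher in exposed than in control rats on D0 (two-sided exact permutation p = 0.0397, 5 against 5 rats) and 0.23 higher on D28 (exact p = 0.0931, 6 against 6 rats). With adjustment for 2 tests neither would be below 0.05, so an unequal response of these caspases was not established.

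Among the sensors, Nlrp3, which responds to particles, crystals and loss of potassium from the cell, gave nearly the same level in all groups. It had 6.36 ± 0.26 (SD, n = 6) in controls and 6.48 ± 0.27 (SD, n = 5) in exposed rats on D0, and 6.36 ± 0.45 and 6.44 ± 0.20 (SD, n = 6 each) on D28. Its log2 FC was 0.11 (limma adjusted p = 0.959) on D0 and 0.08 (adjusted p = 0.945) on D28. Its 3 probes gave between 0.05 and 0.16 on D0 and between -0.05 and 0.16 on D28.

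Nlrp1a, a sensor of the rodent NLRP1 group that is activated by proteolysis, had 6.80 ± 0.07 (SD, n = 6) in controls and 6.96 ± 0.17 (SD, n = 5) in exposed rats on D0. On D28 it had 6.84 ± 0.24 in controls and 6.85 ± 0.05 in exposed rats (SD, n = 6 each). The log2 FC of 0.16 on D0 (limma adjusted p = 0.632) and 0.0015 on D28 (adjusted p = 0.998) were both inside the limit. The exposed rats of D28 were closely grouped, between 6.81 and 6.94.

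Nlrc4, which signals for NAIP proteins that bind flagellin and secretion-system proteins, had the largest log2 FC of the members on D0 and the widest interval, though its size depended on the background correction. The exposed rats had 5.15, 5.07, 4.73, 5.26 and 5.24, and the controls ran from 4.52 over a median of 4.57 to 5.50. All 5 exposed rats were above the control median and none was above the highest control. This gave a log2 FC of 0.32 (standard error 0.22, interval from -0.14 to 0.78, limma adjusted p = 0.708). It was 0.11 with normexp background correction and 0.15 in the deposited table, in both cases below Casp4 (0.19 under each). Nlrc4 was far dimmer than Casp4, with a mean of 5.09 against 10.20 in the exposed rats of D0. The offset of 50 in normexp lowers the log2 FC of a dim gene more, so this order does not rank the responses. The part of signal level in the deposited table was not tested. On D28 the Nlrc4 signals of the exposed rats ran from 3.79 over 4.83 to 4.98 and those of the controls from 4.16 over 4.72 to 5.00, a log2 FC of 0.0092 (standard error 0.21).

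That value on D28 averaged probes that moved in opposite directions. The first probe printed above gave a log2 FC of -0.37 on D28 and rose above background clearly in 1 exposed rat of 6, in 5 controls of 6 and on 12 of all 23 arrays. The second gave 0.38 and was well above background on all 23 arrays. On D0 they gave 0.31 and 0.33. None of these passed the adjusted threshold in the limma fit of single probes (adjusted p = 0.711 and 0.688 on D28, 0.872 and 0.844 on D0).

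Aim2, the sensor of DNA in the cytosol, had 6.14 ± 0.21 (SD, n = 6) in controls and 6.27 ± 0.24 (SD, n = 5) in exposed rats on D0, and 6.50 ± 0.30 and 6.42 ± 0.35 (SD, n = 6 each) on D28. Its log2 FC was 0.12 on D0 and -0.07 on D28 (limma adjusted p = 0.932 and 0.942). Control rats of D28 were higher than those of D0 by 0.36 (standard error 0.16), with an unadjusted p of 0.0375 in limma that did not hold after adjustment (0.344).

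Pycard, the adaptor that links most of these sensors to caspase-1, had single values far from the others on D0. On D0 the exposed rats had 10.60, 10.62, 10.25, 11.78 and 10.91, and the controls ran from 10.53 over a median of 10.60 to 11.28. Exposed rat 4 stood above all others, and control rat 1 stood apart from the other controls. Both were on slide 3, as was the next highest control, rat 5 (10.80). The part of the slide in these values was not tested. The Pycard log2 FC, 0.10 with a standard error of 0.21 (limma adjusted p = 0.974), turned to -0.13 without exposed rat 4 and was 0.25 at most when another rat was left out. On D28 the exposed rats ran from 10.64 over 10.81 to 11.10 and the controls from 10.32 over 10.77 to 11.04, which gave 0.15 for the log2 FC (standard error 0.20, adjusted p = 0.879).

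Gsdmd, whose cleaved product forms the pore of pyroptosis and lets IL-1β out of the cell, was the most even of the members. It had 11.86 ± 0.11 (SD, n = 6) in controls and 11.83 ± 0.14 (SD, n = 5) in exposed rats on D0, and 11.77 ± 0.06 and 11.82 ± 0.10 (SD, n = 6 each) on D28. Its SD within groups of 0.102 was below that of all but 2.33% of the genes tested. For the mean of the days the interval of its log2 FC ran from -0.10 to 0.12 around 0.01 (limma adjusted p = 0.963).

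Of the NOD receptors, Nod1 binds a peptidoglycan fragment mainly of Gram-negative bacteria and Nod2 binds muramyl dipeptide. Nod1 had 9.49 ± 0.19 (SD, n = 6) in controls and 9.47 ± 0.25 (SD, n = 5) in exposed rats on D0, and 9.68 ± 0.14 and 9.59 ± 0.27 (SD, n = 6 each) on D28. Its log2 FC was -0.01 on D0 and -0.08 on D28 (limma adjusted p = 0.996 and 0.903). These Nod1 levels average a pair of probes far apart, at 12.89 and 6.08 in the controls of D0, so neither probe reads them. The probes gave a log2 FC of -0.01 and -0.02 on D0, and of -0.11 and -0.05 on D28. Nod2 had 5.91 ± 0.38 and 5.99 ± 0.22 on D0, and 5.84 ± 0.36 and 5.75 ± 0.45 on D28. Its log2 FC was 0.08 on D0 and -0.09 on D28 (adjusted p = 0.986 and 0.945). One of the Nod2 probes was well above background on 17 of 23 arrays.

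The effect of exposure was not found to differ between the days for any member. The D28 effect minus the D0 effect ran from -0.31 for Nlrc4 to 0.15 for Casp1 on the log2 scale. The adjusted p in limma was 0.99992 for all 10 members, and 0 of 10 had an unadjusted p below 0.05, where 3.45% of all genes did and 0.0304% passed after adjustment. For Casp4 the difference was 0.01 (standard error 0.12, interval from -0.24 to 0.26). In control rats, 0 of 10 members were past both limits between D0 and D28, where 0.616% of all genes were, and 0 of 10 did not overlap, where 1.62% of all genes did not. At an unadjusted p below 0.05 limma passed 2 members there, Aim2 as given above and Casp4, which was 0.20 lower on D28 (log2 FC -0.20, standard error 0.08, adjusted p = 0.297), where 13.3% of all genes passed.

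The other genes of the pathway were taken from a list of 93 symbols, of which 79 were measured. On D0, 56 of the 79 had a positive log2 FC and none was past both limits, where 1.8% of all genes were. At an unadjusted p below 0.05 limma passed 11 upward and 2 downward, where 11.9% of all genes passed in either direction. On D28, 52 of 79 were positive, 1 gene was past both limits, downward, where 0.755% of all genes were, and 10 upward and 2 downward passed the unadjusted p, where 11% of all genes did. For the mean of the 2 days none was past both limits, where 1.87% of all genes were. The adjusted p alone was passed by 8 upward and 2 downward, where 6.56% of all genes passed. The median log2 FC of the 79 genes was 0.09 on D0, 0.12 on D28 and 0.09 for the mean. Over all genes it was -0.00063, -0.0052 and -0.0015. The share of all genes with a positive log2 FC was not counted.

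**Figure D4:**
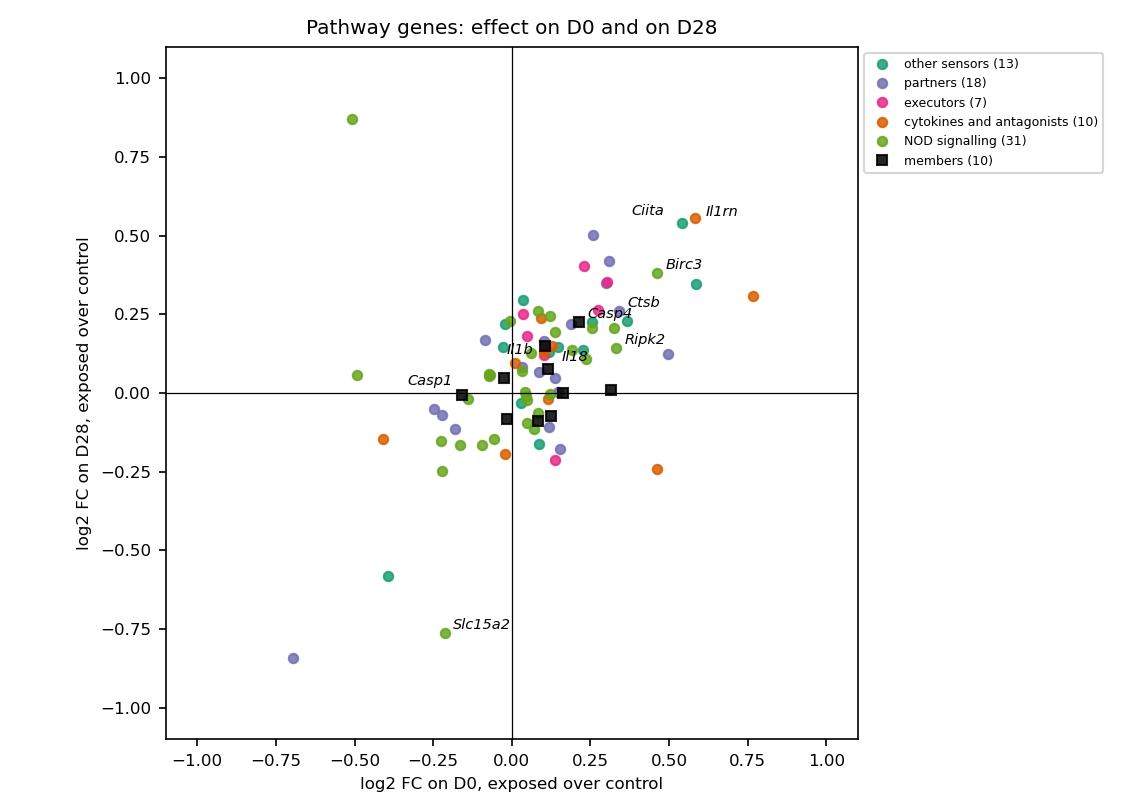
Log2 FC of exposed over control rats on D0 (horizontal axis) and on D28 (vertical axis) for the 79 other pathway genes (circles, coloured by role) and the 10 members (black squares). The members lie between -0.16 and 0.32 on D0 and between -0.09 and 0.23 on D28, and Slc15a2, at -0.76 on D28, is the labelled point past both limits, whereas P2rx7 at -0.84 on D28 did not pass and lay near the background.

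The gene past both limits on D28 was Slc15a2, a peptide transporter of the epithelial cell membrane that can carry muramyl dipeptide, the ligand of NOD2. Its signal in the exposed rats of D28 ran from 9.07 over a median of 9.56 to 9.74, and in the controls from 9.96 over 10.22 to 10.71. The groups did not overlap, and all 6 controls were higher. The highest control, at 10.71, was rat 4, the single array on its slide. The log2 FC was -0.76 (standard error 0.12, limma adjusted p = 0.00268), and it was lower in exposed rats on 3 of 3 slides. On D0 the exposed rats had 9.34, 8.96, 9.19, 9.36 and 9.14, and the controls ran from 9.23 over 9.41 to 9.59, a log2 FC of -0.21 (adjusted p = 0.619).

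The controls themselves changed in Slc15a2. Those of D28 were 0.85 higher than those of D0 (standard error 0.12, limma adjusted p = 0.000697), again without overlap. This contrast shares its D28 controls with the exposure effect of D28, so these values are not independent of each other. The exposed rats of D28 had 9.50 ± 0.25 (SD, n = 6) and the controls of D0 9.41 ± 0.13 (SD, n = 6). The difference between the effects of the days was -0.55 (adjusted p = 0.858). When the fit held the D28 arrays alone, the same log2 FC had a limma adjusted p of 0.0646, so the call on D28 depended on fitting all arrays together. What in the fit made this difference was not tested. The call held in the other 33 alternatives.

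The cytokines that inflammasomes release gave no call. Il1b, the precursor of IL-1β, had 12.96 ± 0.42 (SD, n = 6) in controls and 12.97 ± 0.35 (SD, n = 5) in exposed rats on D0, and 12.56 ± 0.27 and 12.65 ± 0.29 (SD, n = 6 each) on D28. Its log2 FC was 0.01 on D0 (standard error 0.20) and 0.10 on D28 (standard error 0.19), with limma adjusted p of 0.998 and 0.932. Il18 had a log2 FC of 0.13 on D0 and 0.15 on D28 (adjusted p = 0.874 and 0.748). Ripk2, the kinase below NOD1 and NOD2, had 0.33 and 0.14 (adjusted p = 0.7 and 0.902).

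Il1rn, which encodes the secreted antagonist of the IL-1 receptor, was higher in exposed rats with a size close to the limit. On D0 the exposed rats had 12.41, 12.53, 12.76, 13.01 and 12.52, and the controls ran from 11.69 over a median of 11.93 to 12.69. On D28 the exposed rats ran from 12.17 over 12.69 to 12.86 and the controls from 11.76 over 11.99 to 12.38, with 5 of 6 exposed rats above the highest control. Il1rn had a log2 FC of 0.58 on D0 (standard error 0.17, limma adjusted p = 0.0771) and 0.56 on D28 (standard error 0.16, adjusted p = 0.115). For the mean of the days it was 0.57 (standard error 0.12, adjusted p = 0.00456), just under the 0.585 that a FC of 1.5 gives on the log2 scale. It was past both limits for the mean of the days in 9 of 33 alternatives. Exposed rats were higher within 4 of 4 slides on D0 and 3 of 3 on D28.

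The remaining genes past the adjusted p for the mean of the days are named here after their values were seen. Upward these were Ciita, the regulator of MHC class II genes from the same protein family (log2 FC 0.54, adjusted p = 0.00374), Birc3, a ubiquitin ligase of NOD signalling (0.42, 0.0101), and Ctsb, a lysosomal protease whose leak from damaged lysosomes is linked to NLRP3 (0.30, 0.0125). Smaller upward values came from Slc15a3, a lysosomal peptide transporter, Pstpip1, a partner of pyrin, Nlrx1, a mitochondrial family member, and Card9, an adaptor of myeloid cells, with log2 FC of 0.23, 0.36, 0.15 and 0.38 (adjusted p = 0.034, 0.0373, 0.0441 and 0.0484). Downward, besides Slc15a2, was Erbin, which binds NOD2 (-0.23, adjusted p = 0.0147). On D0 the groups did not overlap for 7 of the 79 pathway genes, where 4.31% of all genes did not. These were Birc3, Ctsb, Slc15a3, Pstpip1, Cd14, Ikbkb and Naip5, all higher in exposed rats. On D28 they did not overlap for 2 of 79, Slc15a2 and Ciita, where 1.21% of all genes did not. For Ciita the exposed rats of D28 ran from 8.45 to 8.85 and the controls from 7.73 to 8.32.

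**Figure D5:**
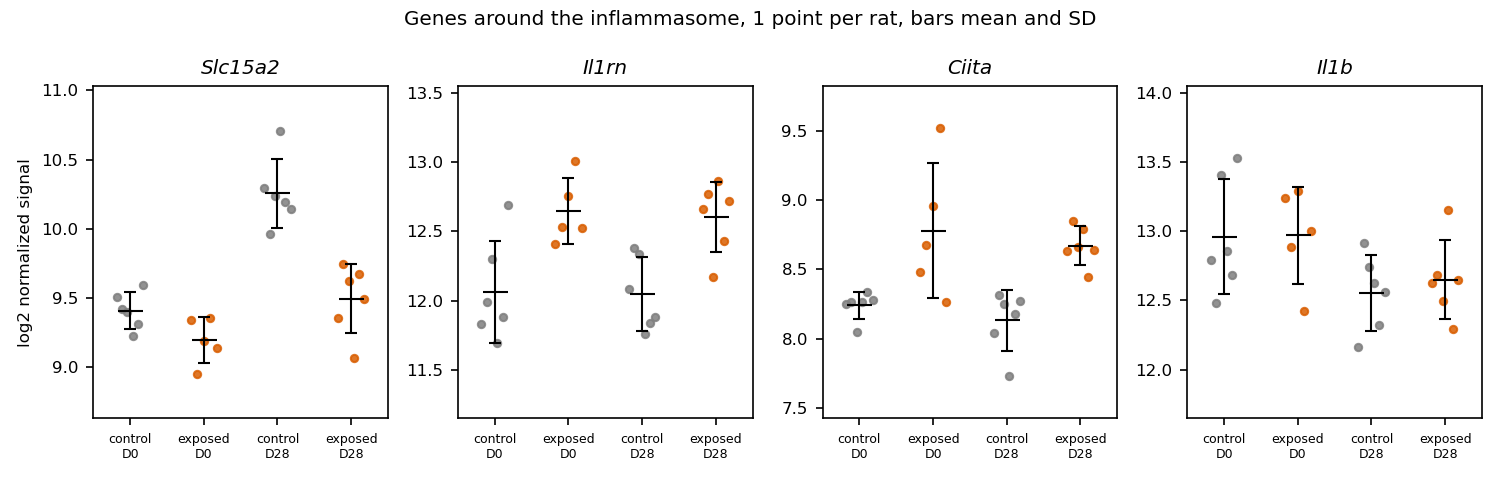
Log2 normalized signal (vertical axis, each panel on its own scale) of Slc15a2, Il1rn, Ciita and Il1b in control (grey) and exposed (orange) rats on D0 and D28; each point is 1 rat and the black bars give the mean and SD. Slc15a2 of the exposed rats of D28 lies below all controls of that day, and Il1b overlaps on both days.

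By role, positive log2 FC on D0 and D28 came from 10 and 10 of 13 other sensors, 13 and 12 of 18 sensor partners, and 7 and 6 of 7 executors, which here are other caspases, gasdermins, Ninj1 and Il1a. They also came from 8 and 6 of 10 cytokines, their receptors and antagonists, and from 18 and 18 of 31 genes of NOD signalling. Some of the sensors lay at the background, where a sign carries little. Nlrp4 and Nlrp6 were well above it in 0 rats of each group. For Nlrp10 this held in 1 exposed rat of D0 alone, and for Nlrp9 in 1 exposed rat of each day. Of these, Nlrp4, Nlrp9 and Nlrp10 were positive on D0, and Nlrp4, Nlrp6 and Nlrp9 on D28. The highest median log2 FC of a role group on either day was 0.25, that of the executors on D28. Naip5, a partner of Nlrc4, had 0.59 on D0 and 0.35 on D28 (limma adjusted p = 0.28 and 0.658). P2rx7, the ATP receptor that can trigger NLRP3, had -0.69 and -0.84 with adjusted p of 0.628 and 0.459. Neither gene passed. P2rx7 lay near the background, and was well above it in 4 of 6 control and 3 of 5 exposed rats of D0. On D28 this held in 4 of 6 control and 1 of 6 exposed rats.

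Markers of myeloid and lung cells moved in part with exposure on the same arrays. Itgam, a surface integrin of neutrophils and macrophages, was higher by a log2 FC of 0.99 on D0 and 0.93 on D28 (limma adjusted p = 0.000124 and 0.000301). Of the 12 neutrophil markers it was the single one past the adjusted p within a day. That threshold alone was passed by 2.88% of all genes on D0 and 1.31% on D28. Of the neutrophil markers, 5 of 12 on D0 and 6 of 12 on D28 were positive. For the mean of the days Ngp, a neutrophil granule protein, was past both limits downward (-0.79, adjusted p = 0.0493), opposite to Itgam, and Cxcr1 passed the adjusted p upward (0.32, adjusted p = 0.0492). Ngp lay near the background, and was well above it in 4 of 6 control and 0 of 5 exposed rats of D0. On D28 this held in 5 of 6 control and 1 of 6 exposed rats. The mean log2 signal of the neutrophil list ran from 8.01 to 8.88 in controls and from 7.78 to 8.73 in exposed rats on D0, and from 7.39 to 8.62 and 7.94 to 8.31 on D28. Of the 12 macrophage markers, 9 were positive on D0 and 8 on D28. Siglec1 (0.89, adjusted p = 0.00261) and Cd68 (0.55, adjusted p = 0.00291) passed the adjusted p on D0, and Cd68 (0.42, adjusted p = 0.0293) did on D28. Siglec1 was past both limits on D0 and for the mean of the days (0.70, adjusted p = 0.000346). For the mean, Cd68 (0.48, adjusted p = 0.000131) and Itgax (0.52, adjusted p = 0.0323) also passed the adjusted p upward, and no macrophage marker passed it downward. Of all genes, 6.56% passed it for the mean in either direction.

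The mean of the macrophage list ran from 7.86 to 8.12 in controls and from 8.10 to 8.33 in exposed rats on D0. On D28 it ran from 7.47 to 8.16 in controls and from 7.81 to 8.13 in exposed rats. Of the markers, 11 of 12 neutrophil genes (all but Ngp) and 10 of 12 macrophage genes were well above background on all arrays, and none was below it on all arrays. No gene of the 8 monocyte, 8 T cell and 6 B cell markers passed the adjusted p on either day. Of all genes, 2.88% passed it on D0 and 1.31% on D28, so this count is near the background. Of the 12 lung markers, 4 were positive on D0 and 3 on D28. None was past both limits, where 1.8% of all genes were on D0 and 0.755% on D28. Aqp5, a water channel of type I pneumocytes, was lower on D0 (-0.47, adjusted p = 0.0317), and Sftpd, a surfactant protein, was higher (0.37, adjusted p = 0.0468). For the mean of the days Aqp5 (-0.32, adjusted p = 0.019) and the endothelial Cdh5 (-0.31, adjusted p = 0.00531) were lower, and Sftpa1 (0.37, adjusted p = 0.0348) and Sftpd (0.32, adjusted p = 0.00531) were higher. The mean of the lung list ran from 14.22 to 14.45 in controls and from 14.12 to 14.33 in exposed rats on D0, and from 14.25 to 14.53 and 14.14 to 14.38 on D28. The part of these markers in the values of Casp4, Il1rn, Ciita or Slc15a2 was not tested.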

How the data were processed

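RNA of the accessory lung lobe of 23 rats was measured on Agilent single-colour arrays, grouped by the titles and descriptions of the samples. The authors deposited intensities per spot as written by Agilent Feature Extraction, whose headers give version 11.0.1.1 for 22 arrays and 12.0.1.1 for the other. The other was control rat 4 of D28, alone on its slide and with the highest 75th percentile of signal (3470.1). The deposited intensities are background corrected but carry no normalization across arrays. They also deposited a table of intensities of all arrays, already quantile normalized, which was used as an alternative. Control spots were left out and spots marked as outliers were set missing. A probe was kept if at least 5 arrays had it above the 95th percentile of their 308 negative controls (40420 of 45598). Log2 processed signals underwent quantile normalization, replicate spots were averaged per probe, and the 32398 probes with a symbol gave 23060 genes by their means. Symbols came from the array of the later software version. One limma model (version 3.58.1, R 4.3.3) with a mean for each of 4 groups, 19 residual degrees of freedom and no batch term was fitted to all arrays. Contrasts were exposed against control on D0 and on D28, the mean and the difference of both, and D28 against D0 in control rats. The p were Benjamini-Hochberg adjusted over all genes. The methods mention a batch correction without naming its factors. The limma script was tested on simulated data. Exact permutation tests used scipy over all splits of the rats of a day.

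The 10 members, the 79 measured pathway genes and the markers were chosen with earlier results of these data known. The genes named were all members, Il1b, Il18, Il1rn, Ripk2 and Naip6 (not on the array under that name), and pathway genes past both limits. For members past both limits the 3 genes most alike would have been named, and there were none. Other genes were named after their values were seen. The alternatives were 75th percentile scaling, normexp with an offset of 50, the deposited table, no filter, a filter on spots well above background, the brightest probe, single probes, the slide and the replicate number as blocks, values within slides, separate fits per day, robust variances with an intensity trend, other thresholds, and each of the 23 arrays left out. Keeping spots marked as outliers was added after seeing the data. Probe positions are on rn4 as deposited. Replicates are separate rats, and n and the number of arrays set the precision.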

Additional observations from a re-analysis of the deposited data

Results flagged for a closer look

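Among 40 sets of values, each a member in a group, 1 held a rat far from the others by Dixon's test, where chance gives about 1 in 20. Pycard in control rat 1 of D0 had a log2 signal of 11.28, the next control had 10.80, and this gap was 0.645 of the range of the group. Both of these controls were on slide 3. Without each rat of D0 in turn the log2 FC of Pycard on D0 ran from -0.13 to 0.25, and no fit passed the adjusted threshold.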

How the results depend on the processing

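No member was past both limits on D0, on D28 or for the mean of the days in any alternative, and 339 of 340, 340 of 340 and 329 of 330 alternative values lay inside the interval first given. Without the FC limit 1 member, Casp4, passed for the mean. The pathway list gave 0 calls on D28 with only the arrays of the day in place of 1. It gave 2 on D0 and 2 for the difference of the days with an unadjusted p in place of 0. For the mean it gave 1 with 75th percentile scaling, 1 with the replicate block, 1 with an unadjusted p and 10 without the FC limit in place of 0. When 1 rat was left out it gave 0 to 1 on D0, 1 on D28 and 0 to 1 for the mean.

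Log2 FC near 0 changed sign. With 75th percentile scaling these were Nod1 on D0 (0.0098), Nlrc4 (-0.0076) and Nlrp1a (-0.027) on D28, and Nod2 for the mean (0.024). With the slide as a block they were Il1b (-0.047) and Nod1 (0.018) on D0, and Nlrp3 (-0.012), Nlrc4 (-0.11) and Casp1 (0.0078) on D28. Nod2 for the mean was 0.015 with normexp, and Gsdmd for the mean was -0.00017 in the deposited table. The cause was not tested.

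With 1 rat left out, values of both signs were found on D0 for Gsdmd (-0.077 to 0.017), Il1b (-0.084 to 0.15), Nod1 (-0.12 to 0.043), Nod2 (-0.053 to 0.17) and Pycard (-0.13 to 0.25). On D28 they were found for Aim2 (-0.15 to 0.031), Casp1 (-0.072 to 0.048), Il1b (-0.0042 to 0.17), Nlrc4 (-0.084 to 0.18), Nlrp1a (-0.0501 to 0.091), Nlrp3 (-0.051 to 0.19) and Nod2 (-0.20 to 0.079). For the mean they were found for Aim2 (-0.015 to 0.078), Gsdmd (-0.015 to 0.032) and Nod2 (-0.071 to 0.081).

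Over 33 pairs of same-numbered rats, the correlation of their deviations from the group mean ran from -0.30 to 0.46 and was above 0.1 in 12. Rats with different numbers were not compared, so these values cannot show whether the numbers pair the rats. With the replicate block Casp4 for the mean had an adjusted p of 0.055 and Nod2 a log2 FC of 0.0036, and no other call of a member changed.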
